A study of Homo sapiens with 6 samples.

Results

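The mitosis genes described here are 47 genes that drive or carry out cell division: the cyclins and kinases of entry into mitosis, the motors and attachment proteins of the spindle, and the proteins of the spindle checkpoint and of cytokinesis. They were chosen by gene symbol from general knowledge of the pathway, with earlier results of these data known. On the array they have 60 probes out of 24740 probes with 1 symbol, and 47 genes out of 18365. RNA was measured on 1 one-colour array each from HM20 clones labelled as expressing SFRP1, SFRP2, SFRP3, SFRP4 or SFRP5 and from the HM20 mock control, 6 arrays in all. The parent line is A549, an established line from a human lung adenocarcinoma, and every sample, mock included, had been kept in Wnt3a-containing medium for 24 hours. The SFRPs are secreted proteins that bind Wnt ligands, and the study set the SFRP clones against mock to ask how they modulate Wnt signalling and cancer stem cell properties. No source used here explains the name HM20, each SFRP is represented by 1 culture of stable clones, and no array without Wnt3a was analysed here.

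A cell enters mitosis when CDK1, bound to cyclin A or cyclin B, is freed of inhibitory phosphates by the CDC25 phosphatases. The spindle is then built by kinesins and by the Aurora and Polo kinases, and the checkpoint holds back the anaphase-promoting complex until every kinetochore is attached. Most of these genes are transcribed late in the cell cycle, and in human cells many are known to be controlled by the DREAM and MuvB complexes, B-MYB and FOXM1 through promoter elements called CHR and by NF-Y through CCAAT boxes. Their summed RNA is widely used as a measure of proliferation in lung cancer cells.

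The promoters are shown first because they carry letters that the choice of genes did not use. RefSeq promoter windows on GRCh38.p14, from 250 bases before to 50 after each transcription start, matched 40 of the 47 genes by symbol, with 52 windows. The core of the CHR element was searched as TTTGAA, as TTCGAA or as TTTAAA and the CCAAT box as CCAAT, on both strands, where TTTAAA and TTCGAA read the same on each strand. The windows below end at the base before the start and are 120 bases long, written on the strand of the gene with CCAAT boxes and CHR-type letters in capitals. The first 7 are the genes with 1 window that were at least 2-fold lower in SFRP5 than in mock, and CCNB1 and CDC20 are shown beside them as genes that were not.
CCNA2: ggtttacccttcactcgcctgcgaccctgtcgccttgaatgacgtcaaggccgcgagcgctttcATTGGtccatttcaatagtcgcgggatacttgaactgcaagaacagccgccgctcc
CCNB2: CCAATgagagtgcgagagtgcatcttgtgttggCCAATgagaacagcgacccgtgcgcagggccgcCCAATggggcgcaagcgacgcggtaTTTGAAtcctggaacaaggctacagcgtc
KIF11: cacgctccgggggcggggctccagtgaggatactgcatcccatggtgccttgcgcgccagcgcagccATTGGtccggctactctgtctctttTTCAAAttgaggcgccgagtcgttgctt
KIF20A: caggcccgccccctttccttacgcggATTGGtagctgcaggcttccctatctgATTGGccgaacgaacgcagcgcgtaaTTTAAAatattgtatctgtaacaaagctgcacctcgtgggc
CENPE: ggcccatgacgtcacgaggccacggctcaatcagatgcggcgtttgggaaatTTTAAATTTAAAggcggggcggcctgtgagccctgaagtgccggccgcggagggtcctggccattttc
NUSAP1: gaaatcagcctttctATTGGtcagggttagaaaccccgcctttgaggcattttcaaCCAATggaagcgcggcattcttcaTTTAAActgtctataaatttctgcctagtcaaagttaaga
MKI67: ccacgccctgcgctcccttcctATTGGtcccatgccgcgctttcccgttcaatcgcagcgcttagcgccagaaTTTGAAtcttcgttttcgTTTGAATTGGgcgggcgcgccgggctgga
CCNB1: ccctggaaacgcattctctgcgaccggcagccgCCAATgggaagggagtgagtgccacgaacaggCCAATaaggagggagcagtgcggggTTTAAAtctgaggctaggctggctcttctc
CDC20: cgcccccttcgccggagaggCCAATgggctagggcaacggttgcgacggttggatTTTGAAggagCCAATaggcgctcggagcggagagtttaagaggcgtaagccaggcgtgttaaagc
The windows lie at chr4:121823884-121824003 on the minus strand (CCNA2), chr15:59105026-59105145 on the plus strand (CCNB2), chr10:92593010-92593129 on the plus strand (KIF11), chr5:138178992-138179111 on the plus strand (KIF20A) and chr4:103198344-103198463 on the minus strand (CENPE). NUSAP1 lies at chr15:41332761-41332880 on the plus strand, MKI67 at chr10:128126424-128126543 on the minus strand, CCNB1 at chr5:69167030-69167149 on the plus strand and CDC20 at chr1:43358861-43358980 on the plus strand. In CCNB2 the 3 CCAAT boxes start at -120, -87 and -54, counted from the base before the start as -1, and the CHR letters TTTGAA start at -29. CCNB1 has CCAAT boxes at -87 and -55 and TTTAAA at -30. In MKI67 the TTTGAA nearer to the start shares a base with a CCAAT box read on the other strand, and CCNA2 holds a CCAAT box but none of the 3 CHR spellings searched.

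CCAAT letters were found in 38 of the 52 windows of the mitosis genes (73.1%), against 34.6% of all 35116 windows. CHR-type letters were in 42 of the 52 (80.8%), against 25.1% of all windows, and both were in 32 (61.5%), against 9.7%. A pair of CCAAT boxes in the same orientation with starts 31 to 33 bases apart, as in CCNB1 and CCNB2, was in 6 windows (11.5%), against 0.849%. These 6 windows belong to CCNB1, CCNB2, CDK1, HMMR, NEK2 and SPC25. The 114 windows of other mitosis genes held CCAAT letters in 49.1%, CHR-type letters in 42.1%, both in 25.4% and the pair in 5.26%, above the shares of all windows and below those of the 47 genes. The 45 windows of DNA replication genes held CCAAT letters in 57.8%, CHR-type letters in 15.6%, both in 8.89% and the pair in 2.22%. The matches are a description of the letters in these windows, and no test was made on them.

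**Figure D1:**
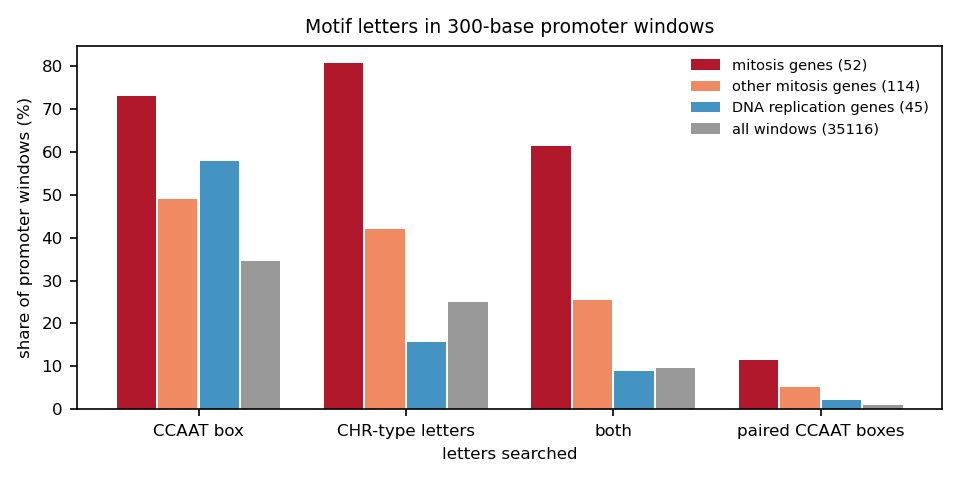
Share of RefSeq promoter windows (y axis, percent) that hold a CCAAT box, CHR-type letters, both, or a pair of CCAAT boxes 31 to 33 bases apart. Bars stand for the mitosis genes (52 windows), other mitosis genes (114), DNA replication genes (45) and all windows (35116), and the mitosis genes have the tallest bar in each set, 80.8% against 25.1% of all windows for CHR-type letters.

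The array medians lay between 622.5 and 689.0 in the clones, against 599.6 in mock, and the arrays' 10th percentiles between 53.2 and 91.0 in the clones, against 69.5 in mock. Values are intensities, and differences are log2(intensity + 1) of a clone minus mock. For a gene with several probes the brightest was used. Of the 47 genes, 45 passed the filter, which asked for an intensity of at least 641.8 on the brightest of the 6 arrays and left 11954 genes. The KIF15 probe lay below the 10th percentile on every array and the INCENP probe reached at most 411.3, so neither kinesin KIF15 nor INCENP, the scaffold of the chromosomal passenger complex, was compared. PTTG1 passed through 2 arrays (SFRP1 and SFRP4), KIF18A through 3, and BUB1B and KIF14 through 5. No probe of a clone's own SFRP gene was 2-fold above mock. The difference of the clone from mock was 0.58 for SFRP1, -0.31 for SFRP2, -0.12 for FRZB (the gene of SFRP3), -0.34 for SFRP4 and -0.65 for SFRP5. For SFRP5 the intensity was 44.5 in its own clone, against 70.5 in mock, and the SFRP2, SFRP4 and SFRP5 probes lay under the 10th percentile of their own clone's array. The position of these probes is not known here. Of 8 epithelial markers 6 had a probe, with a summed intensity of 2905 to 7579 in the clones, against 7066 in mock. Of the 5 that passed the filter, 1 was above mock in SFRP1, 2 in SFRP2, 3 in SFRP3, 0 in SFRP4 and 2 in SFRP5, with medians of -1.55, -0.18, 0.03, -0.97 and -0.02. In SFRP5 the keratin KRT8 differed by 1.25 and KRT7 by 0.52, while KRT19 differed by -0.02, the cadherin CDH1 by -1.09 and CLDN4 by -0.80. Of 14 measured blood, endothelial and fibroblast markers, PTPRC, LYZ and COL3A1 lay below the 10th percentile on all arrays. Their summed intensity was 6599 to 8486 in the clones, against 9822 in mock, and without PECAM1, which read 527 to 718 in the clones, against 4134 in mock, it was 6071 to 7773 in the clones, against 5688 in mock. Of the 5 of these markers that passed the filter, 3 were above mock in SFRP1, 4 in SFRP2, 2 in SFRP3, 4 in SFRP4 and 4 in SFRP5. In SFRP5, where 44.1% of all genes were below mock, the 4 were CD14 (0.51), VWF (0.22), COL1A1 (0.62) and LUM (0.77). The median of the 5 markers was highest in SFRP5, at 0.51, against -0.09 to 0.14 in SFRP1 to SFRP4. VWF passed the filter only through SFRP4 and SFRP5, and LUM only through SFRP4, so the filter itself favours values above mock there. The part of these markers in the results on mitosis genes was not tested.

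Mitosis genes were lower on the SFRP5 array, and nearer to mock on the other arrays. Over the 45 genes, the median difference was -0.13 for SFRP1, -0.05 for SFRP2, -0.23 for SFRP3, 0.01 for SFRP4 and -0.60 for SFRP5. The medians of all 11954 genes were 0.05, 0.08, 0.03, 0.06 and 0.10 in the same clones. The SFRP4 median lay between -0.11 and 0.01 under other scalings, filters and probe rules, so it has no settled sign. The 5 blood, endothelial and fibroblast markers that passed the filter had a median of 0.51 on the same SFRP5 array, with the limit from the filter given above. The SFRP5 median of the mitosis genes corresponds to 0.658 times the mock intensity. In SFRP5 38 of the 45 genes were below mock, against 44.1% of all genes, while in SFRP4 22 of the 45 were below, against 45.8%, in SFRP1 25, against 45.9%, and in SFRP2 26, against 42.4%. SFRP3 had 34 of 45 genes below mock, against 46.5% of all genes, but the differences there were small, with quartiles of -0.43 and -0.01. In RNA of whole cultures, fewer cells in division and less of each RNA per dividing cell cannot be told apart. Each clone has 1 array, so no difference of a single clone from mock has a replicate check, and the 5 differences share the mock array.

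**Figure D2:**
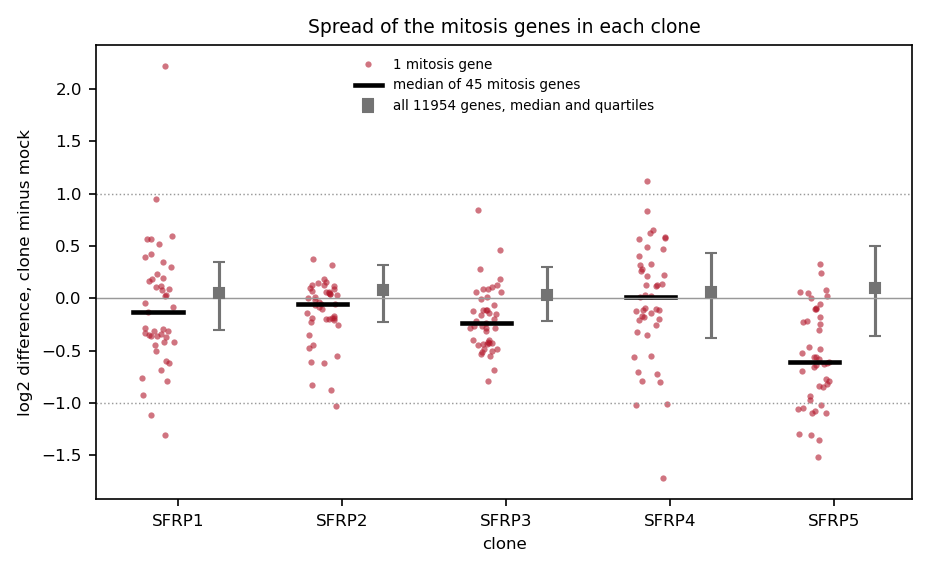
Log2 difference of each clone from mock (y axis) by clone (x axis), with a point for each of the 45 mitosis genes, a black line at their median, and a grey square with bars for the median and quartiles of all 11954 genes. Dotted lines mark 2-fold, and the SFRP5 points centre on -0.60 while those of SFRP4 centre on 0.01.

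At least 2-fold differences from mock were seen for 15 of the 45 genes in 1 or more clones, and for PTTG1 and KIF11 in more than 1. In SFRP5 10 genes were at least 2-fold lower (22.2%), against 6.53% of all genes, and none was 2-fold higher, against 5.98%. The lower genes were CCNA2, CCNB2, CDK1, CDC25C, KIF11, KIF20A, CENPE, NUSAP1, MKI67 and FOXM1. All 10 had their lowest value of the 6 arrays in SFRP5, a rank that their selection by a low SFRP5 value favours. The matching share among all genes at least 2-fold lower in SFRP5 was not counted. At 1.5-fold, 23 genes were lower in SFRP5 (51.1%), against 16.3% of all genes, and none was higher, against 19.9%. SFRP1 had 2 genes at least 2-fold lower, KIF11 and HMMR, against 4.33% of all genes, and PTTG1 higher, against 4.41%. In SFRP2 KIF11 was the only mitosis gene 2-fold from mock, against 3.89% of all genes lower, and 2.8% higher, and SFRP3 had none, against 3.15% lower and 3.73% higher. SFRP4 had KIF14, KIF18A and KIF4A at least 2-fold lower, against 7.51%, and PTTG1 higher, against 5.97%. In SFRP1, SFRP2, SFRP3 and SFRP4 these shares were near or under those of all genes. PTTG1 passed the filter only through SFRP1 and SFRP4, the arrays where it was 2-fold higher, so the filter itself favours that result. KIF18A passed only through SFRP2, SFRP3 and mock, and KIF14 through every array except SFRP4, so the filter also favours their low SFRP4 values. At 1.5-fold, 8 mitosis genes were lower and 3 higher in SFRP1, against 12.6% and 12.7% of all genes. SFRP2 had 5 lower and 0 higher at 1.5-fold, against 10.2% and 10.3%. SFRP3 had 2 lower and 1 higher, against 8.69% and 11%, and SFRP4 had 7 lower and 5 higher, against 16.9% and 17.1%.

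**Figure D3:**
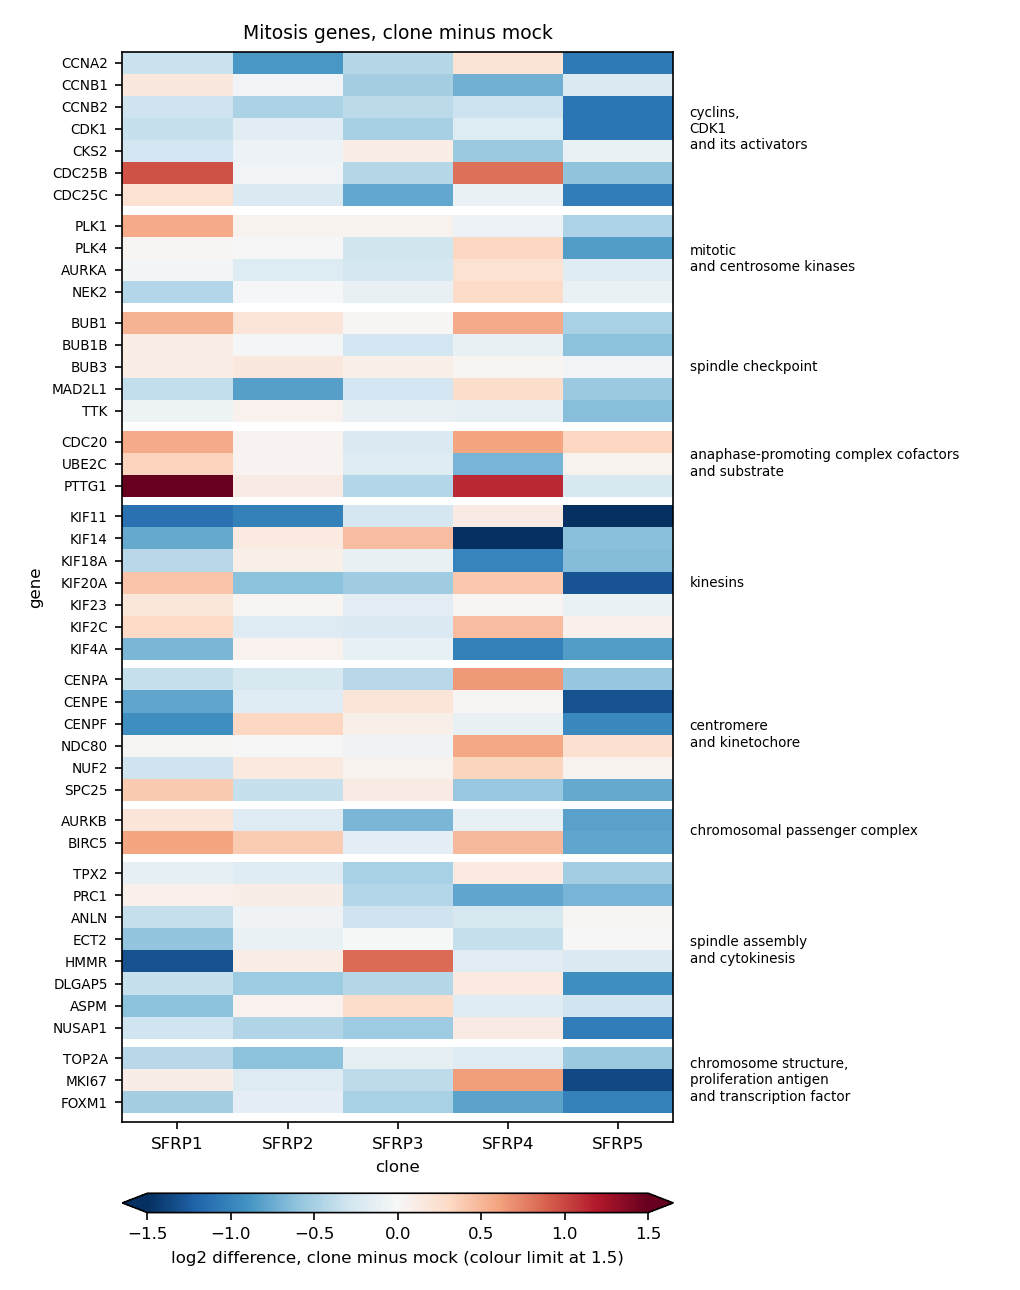
Log2 difference of each clone from mock (colour, blue lower and red higher, limited at 1.5) for the 45 mitosis genes (rows, by role) in the 5 clones (columns). The SFRP5 column is blue for 38 of 45 genes, and the SFRP4 column is divided, with 22 genes below mock.

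The cyclins, CDK1 and its activators had the lowest median of the 9 roles in SFRP5, -1.05, and all 7 were below mock there. CCNA2, the gene of cyclin A2, read 8679.5 in SFRP1, 5945 in SFRP2, 8138 in SFRP3, 12620.5 in SFRP4 and 5189 in SFRP5, against 10907 in mock. SFRP5 was the lowest array and SFRP4 the highest, and the differences from mock were -0.33 in SFRP1, -0.88 in SFRP2, -0.42 in SFRP3, 0.21 in SFRP4 and -1.07 in SFRP5. The other CCNA2 probe differed by -1.50 in SFRP5 and by -0.41 in SFRP4, so the 2 probes have opposite signs in SFRP4. CCNB2, a cyclin B gene, read 8592 in SFRP1, 7669 in SFRP2, 8058 in SFRP3, 8516 in SFRP4 and 4963 in SFRP5, against 10629 in mock. Mock was highest, the clones SFRP1 to SFRP4 lay close together, and SFRP5 stood below them, with a difference of -1.10. CDK1, the kinase these cyclins activate, read 11233 in SFRP1, 12663 in SFRP2, 10042 in SFRP3, 12340.4 in SFRP4 and 6671 in SFRP5, against 14219 in mock, and differed by -1.09 in SFRP5. It too was highest in mock and lowest in SFRP5, while its dim other probe differed by 0.15 in SFRP2, 0.50 in SFRP4 and -0.50 in SFRP5. CDC25C, a phosphatase that activates CDK1, read 12938 in SFRP1, 9425 in SFRP2, 6408 in SFRP3, 10299 in SFRP4 and 5319 in SFRP5, against 11034 in mock, and differed by -0.78 in SFRP3 and -1.05 in SFRP5. CCNB1, the main cyclin B gene of mitotic entry, did not share the low SFRP5 value: it read 14484 in SFRP1, 12509 in SFRP2, 9059 in SFRP3, 7858 in SFRP4 and 11084 in SFRP5, against 12939.8 in mock, with its lowest values in SFRP4 and SFRP3. The remaining members of the group, CKS2 (a CDK subunit) and CDC25B (a phosphatase), differed by -0.10 and -0.60 in SFRP5, and CDC25B was nearly 2-fold above mock in SFRP1 (0.95) and SFRP4 (0.83).

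**Figure D4:**
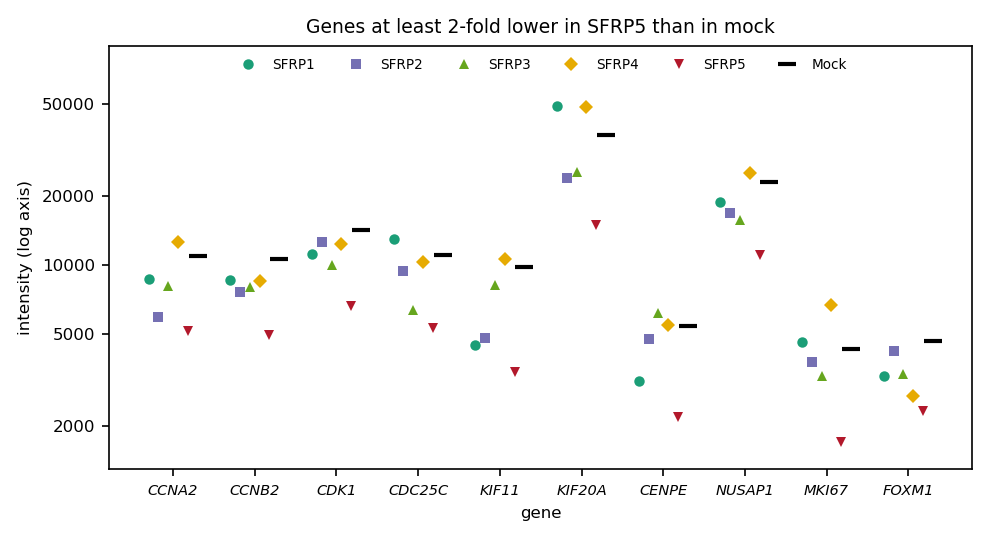
Intensity (y axis, log scale) on each of the 6 arrays for the 10 mitosis genes that were at least 2-fold lower in SFRP5 than in mock (x axis), 1 symbol per array. The SFRP5 symbol is the lowest of the 6 for all 10 genes, at 1705 in SFRP5 against 4339.9 in mock for MKI67 and at 14954 in SFRP5 against 36693 in mock for KIF20A. The genes were selected by their low SFRP5 value, which favours this rank.

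The mitotic and centrosome kinases differed less. All 4 were below mock in SFRP5, with a median of -0.32, and none was 2-fold from mock in a clone. PLK1, the Polo kinase of mitotic entry and exit, read 4231 in SFRP1, 2954 in SFRP2, 2974 in SFRP3, 2685 in SFRP4 and 2075 in SFRP5, against 2858 in mock. PLK4, the kinase that starts centriole duplication, read 4107 in SFRP1, 4041 in SFRP2, 3289 in SFRP3, 5004 in SFRP4 and 2235 in SFRP5, against 4008 in mock. Both were lowest in SFRP5, PLK1 was highest in SFRP1 and PLK4 in SFRP4. AURKA, the spindle pole kinase, read 18851 in SFRP1, 16795 in SFRP2, 16202 in SFRP3, 22661 in SFRP4 and 17104 in SFRP5, against 19394 in mock, and its 5 differences lay between -0.26 and 0.22. NEK2, a kinase of centrosome separation, had differences from -0.44 to 0.28. Its 2 dimmer probes did not follow its brightest one in every clone, and differed by -0.59 and 0.61 in SFRP4.

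The 5 spindle checkpoint genes were all below mock in SFRP5, with a median of -0.56 and a range of -0.63 to -0.05. MAD2L1, a checkpoint protein that binds CDC20, read 24769.8 in SFRP1, 17979.6 in SFRP2, 26317 in SFRP3, 38325 in SFRP4 and 21731 in SFRP5, against 31946 in mock. It was lowest in SFRP2 (-0.83) and higher than mock in SFRP4 alone (0.26). The kinases BUB1 and TTK, the BUB1-related BUB1B and their partner BUB3 had their lowest value in SFRP5, but BUB3 lay between -0.05 and 0.16 in all 5 clones.

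The cofactors and the substrate of the anaphase-promoting complex did not share the low SFRP5 values, with a median of 0.05. CDC20, the activator of the complex, read 61521 in SFRP1, 42574 in SFRP2, 35674 in SFRP3, 62213 in SFRP4 and 51927 in SFRP5, against 41392 in mock. It was lowest in SFRP3 and was above mock in the other clones, by 0.57 in SFRP1 and 0.33 in SFRP5. UBE2C, its ubiquitin-conjugating enzyme, was lowest in SFRP4 on its brightest probe (-0.70), but its other probes differed by 0.19 and 0.54 there. PTTG1, the gene of securin, which the complex degrades at anaphase, read 1758 in SFRP1, 412 in SFRP2, 278 in SFRP3, 819.9 in SFRP4 and 318 in SFRP5, against 377 in mock. SFRP1 and SFRP4 stood above the other 4 arrays, with differences of 2.22 and 1.12. It has 1 probe here, whose sequence is not known, and PTTG1 has near-identical copies in the human genome, so which of them the signal reads is uncertain.

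Of the kinesins, 6 of 7 were below mock in SFRP5, with a median of -0.65, and KIF14 in SFRP4 had the lowest difference of any mitosis gene compared. KIF11, the motor that pushes spindle poles apart, read 4517 in SFRP1, 4819 in SFRP2, 8192 in SFRP3, 10673 in SFRP4 and 3420.1 in SFRP5, against 9802 in mock. SFRP1, SFRP2 and SFRP5 were more than 2-fold below mock, with differences of -1.12, -1.02 and -1.52, and SFRP3 and SFRP4 were near mock. KIF20A, a motor of the central spindle and cytokinesis, read 49270.4 in SFRP1, 24017 in SFRP2, 25371 in SFRP3, 48609 in SFRP4 and 14954 in SFRP5, against 36693 in mock. It was above mock in SFRP1 and SFRP4 and lowest in SFRP5 (-1.29). KIF14, a motor of cytokinesis, read 1183 in SFRP1, 2197 in SFRP2, 2775 in SFRP3, 609 in SFRP4 and 1301 in SFRP5, against 2009 in mock, and was lowest in SFRP4 (-1.72). KIF4A, a chromosome-bound motor, read 1300.1 in SFRP1, 2178 in SFRP2, 1919.9 in SFRP3, 1029 in SFRP4 and 1166 in SFRP5, against 2087 in mock. KIF18A, which damps the movements of chromosomes at the metaphase plate, read 541 in SFRP1, 769 in SFRP2, 668 in SFRP3, 359 in SFRP4 and 460.1 in SFRP5, against 723 in mock. KIF14, KIF4A and KIF18A were each lowest in SFRP4, and SFRP1 and SFRP5 also lay below mock, SFRP2 and SFRP3. KIF18A was dim on every array, and like KIF14 it was under the filter level in SFRP4. KIF23 and KIF2C had their 5 differences between -0.23 and 0.47.

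Of the 6 centromere and kinetochore genes, 4 were below mock in SFRP5, with a median of -0.67. CENPE, a kinetochore motor, read 3144 in SFRP1, 4782 in SFRP2, 6189.7 in SFRP3, 5486 in SFRP4 and 2193 in SFRP5, against 5433 in mock. The SFRP5 and SFRP1 arrays lay below the other 4, with differences of -1.31 and -0.79. CENPF had the same 2 low arrays (-0.93 in SFRP1 and -0.97 in SFRP5). CENPA, the centromeric histone, was highest in SFRP4 (0.66, and 0.61 on its other probe) and lowest in SFRP5 (-0.58, and -0.80). Subunits of 1 complex had opposite signs in SFRP5: NDC80 and NUF2 were slightly above mock (0.24 and 0.06), while their partner SPC25 differed by -0.77.

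Both measured genes of the chromosomal passenger complex were below mock in SFRP5. AURKB, its kinase, read 8786 in SFRP1, 6754 in SFRP2, 4799.7 in SFRP3, 7073 in SFRP4 and 4372 in SFRP5, against 7694 in mock, and its other probe differed by -0.58 in SFRP5. BIRC5, the gene of survivin, which targets the complex, read 30612 in SFRP1, 26373 in SFRP2, 18347 in SFRP3, 28545 in SFRP4 and 11759 in SFRP5, against 20305 in mock. It was lowest in SFRP5 (-0.79, and -0.56 on its second probe) and above mock in SFRP1, SFRP2 and SFRP4. Its dimmest probe differed by 0.36 in SFRP5.

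Among the 8 genes of spindle assembly and cytokinesis, 6 were below mock in SFRP5, with a median of -0.41. NUSAP1, which bundles spindle microtubules, read 18721 in SFRP1, 16840.0 in SFRP2, 15692 in SFRP3, 25037 in SFRP4 and 11085 in SFRP5, against 22947 in mock. It was lowest in SFRP5 (-1.05), and SFRP4 was the only clone above mock. HMMR, a spindle protein first known as a hyaluronan receptor, had another order and read 4318 in SFRP1, 11578 in SFRP2, 19255 in SFRP3, 9538 in SFRP4 and 9198 in SFRP5, against 10688 in mock. It was lowest in SFRP1 (-1.31) and highest in SFRP3 (0.85), and SFRP5 was near mock. ANLN and ECT2, which act at the cleavage furrow, differed by 0.02 and 0.01 in SFRP5. The other ECT2 probe, also above the filter level, had the opposite sign in all 5 clones and was lowest in SFRP5 (-0.31), so ECT2 has no settled direction. The differences of the remaining genes (TPX2, PRC1, DLGAP5 and ASPM) were -0.93 to -0.30 in SFRP5.

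TOP2A, MKI67 and FOXM1 were all below mock in SFRP5. MKI67 encodes the Ki-67 antigen that pathologists use to count cycling cells, and read 4631 in SFRP1, 3794 in SFRP2, 3303 in SFRP3, 6691 in SFRP4 and 1705 in SFRP5, against 4339.9 in mock. SFRP4 was highest and SFRP5 lowest, with differences of 0.62 and -1.35. FOXM1, a transcription factor of late cell cycle genes, read 3307 in SFRP1, 4248 in SFRP2, 3351 in SFRP3, 2689 in SFRP4 and 2321 in SFRP5, against 4691 in mock, and was below mock in every clone, with differences of -0.80 in SFRP4 and -1.01 in SFRP5. TOP2A, the topoisomerase that untangles sister chromatids, read 80619 in SFRP1, 70516 in SFRP2, 97993 in SFRP3, 94219 in SFRP4 and 73091 in SFRP5, against 107918 in mock. Mock was the highest array for TOP2A as for FOXM1, CCNB2 and CDK1.

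The clones were also tested as a set against mock. With limma's test over 11954 genes, which took the scatter among the 5 different clones as the error, with 4 residual degrees of freedom, 0 of the 45 mitosis genes had an adjusted p under 0.05, against 5 of all genes (0.0418%). None had an unadjusted p under 0.05 either, against 2.18% of all genes, and the lowest unadjusted p of a mitosis gene in limma was 0.175 for FOXM1, which differed by -0.59 ± 0.33 (SD, n = 5 clones) and was lower in 5 of 5 clones. The median of the genes' mean differences was -0.21, against 0.06 for all genes, and it was -0.13 without SFRP5. In all 5 clones 4 genes were below mock, CCNB2, CDK1, TOP2A and FOXM1 (8.89%), against 8.51% of all genes, and none was above mock in all 5, against 14.5%. The mean differences of the other 3 were -0.52 ± 0.33 for CCNB2, -0.46 ± 0.38 for CDK1 and -0.39 ± 0.21 for TOP2A (SD, n = 5 clones; limma adjusted p = 1.00 for all 4 genes, rounded). The CDK1 value was -0.30 without SFRP5 and -0.23 with the mean over its probes, the dimmer of which, below the filter level, was above mock in SFRP2 and SFRP4. The number of arrays limits the precision, and these p-values cover no error between replicate cultures. On simulated data of this design the fit missed nearly all 2-fold changes, so the absence of calls does not show that the genes were equal.

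The position of SFRP5 was then described without the mock array as the reference. SFRP5 was the lowest of the 6 arrays for 24 of the 45 genes (53.3%), against 18.5% of all genes, and the highest for ANLN and ECT2, against 24.6%. On the other ECT2 probe SFRP5 was the lowest array, and on the other BUB3 probe SFRP4 was. SFRP4 was the highest array for 16 genes (35.6%), against 23.7%, and SFRP1 for 12 (26.7%), against 16.8%, while SFRP2 was highest for 6, against 12%, and SFRP3 for 5, against 14.4%. The lowest array was SFRP4 for 7 genes, against 23.1%, SFRP1 for 6, against 16%, SFRP3 for 6, against 16.9%, and SFRP2 for 2, against 11%. Mock was the highest for 4 genes, against 8.51%. Mock was the lowest array for none of the 45 genes, against 14.5%. Set against each clone, the median of the 45 genes in SFRP5 differed by -0.39 from SFRP1, -0.42 from SFRP2, -0.42 from SFRP3 and -0.41 from SFRP4, where the medians of all genes were 0.08, 0.05, 0.05 and 0.04. The number of genes at least 2-fold lower in SFRP5 was 10 against SFRP1 (8.43% of all genes), 4 against SFRP2 (4.58%), 5 against SFRP3 (5.71%) and 13 against SFRP4 (9.68%). MKI67 and BIRC5 were among them against SFRP1, SFRP2 and SFRP4, and CENPE against SFRP2, SFRP3 and SFRP4. At least 2-fold higher in SFRP5 were HMMR against SFRP1 (7.77% of all genes) and KIF14 against SFRP4 (10.8%), and none against SFRP2 (3.44%) or SFRP3 (3.3%). The other 6 pairs of clones had medians between -0.28 and 0.17.

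**Figure D5:**
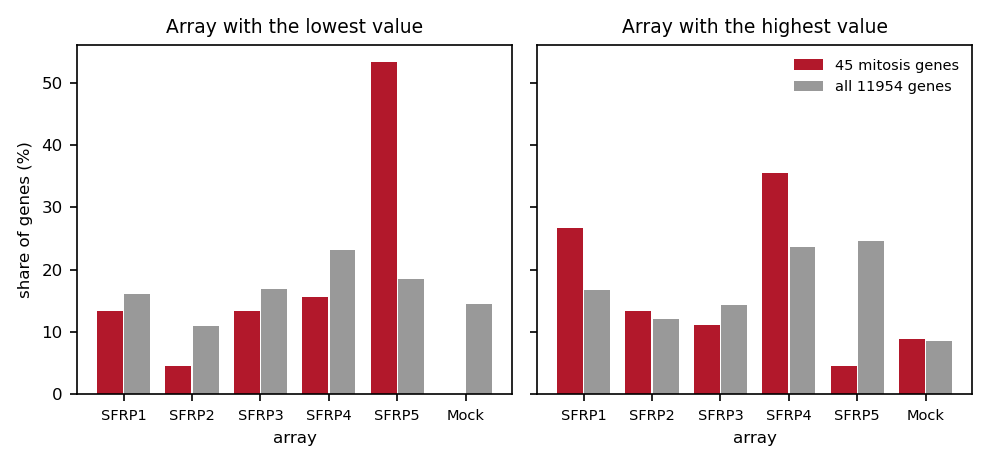
Share of genes (y axis, percent) for which each array (x axis) had the lowest (left panel) or the highest (right panel) of the 6 values, for the 45 mitosis genes and for all 11954 genes. SFRP5 has the lowest value for 53.3% of the mitosis genes and 18.5% of all genes, and the highest for 4.44% and 24.6%.

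The difference of each array from the other 5 was tested in limma, with the single array assumed to vary like the rest. For SFRP5, 0 of the 45 genes had an adjusted p under 0.05, against 2 of all genes (0.0167%), and the lowest limma adjusted p of a mitosis gene was 0.609, for MKI67, with a difference of -1.37 from the mean of the other 5 arrays. At an unadjusted p under 0.05 in limma, 8 of the 45 were lower in SFRP5 (CCNB2, CDK1, PLK4, KIF20A, CENPE, BIRC5, NUSAP1 and MKI67), against 4.1% of all genes, and 0 were higher, against 3.74%. Their differences ran from -1.37 to -0.80. Of the genes named next, PTTG1 passed the filter only through SFRP1 and SFRP4, so the filter itself favours a higher value there. KIF14 passed through every array except SFRP4, which favours a lower value in SFRP4. UBE2C was low in SFRP4 on its brightest probe alone, and its other probes differed from mock by 0.19 and 0.54 there. At the same unadjusted threshold SFRP4 had UBE2C and KIF14 lower, against 8.52% of all genes, and CENPA higher, against 6.08%. SFRP1 had HMMR lower, against 2.55%, and PTTG1 higher, against 2.48%. SFRP2 had none, against 1.05% lower and 0.619% higher, and SFRP3 had none, against 0.878% lower and 1.27% higher. After adjustment the share of all genes called by limma was 0.0167% for SFRP1, 0.00837% for SFRP2, 0.0251% for SFRP3 and 0.577% for SFRP4. No mitosis gene passed the adjusted threshold in any of these fits, which have the same 5-against-1 form as the set test and the same limit on 2-fold changes, and which were added after the values were seen.

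Of the 10 genes with several probes, 11 further probes reached the filter level. In SFRP5, SFRP1 and SFRP3 9 of the 11 had the same sign as the probe used, in SFRP2 10, and in SFRP4 4. The SFRP4 values of the genes with several probes therefore depend on the probe.

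The other mitosis genes, a list of 105 symbols of condensin, cohesin, the anaphase-promoting complex, further kinetochore, spindle and cytokinesis proteins and entry regulators, had 98 genes past the filter. Their medians were 0.01 in SFRP1, 0.06 in SFRP2, -0.13 in SFRP3, 0.08 in SFRP4 and -0.22 in SFRP5, and 69 of the 98 were below mock in SFRP5, against 44.1% of all genes. In SFRP5 7 were at least 2-fold lower, against 6.53%, and none higher. None of the 98 passed limma in the set of clones. The 4 with the largest mean differences were CENPM, SPC24, CDC26 and RAD21. CENPM, a kinetochore protein, read 3698 in SFRP1, 3346 in SFRP2, 3753 in SFRP3, 5839 in SFRP4 and 3371 in SFRP5, against 7458 in mock. Every clone was below mock, as for 8.51% of all genes. SPC24, the partner of SPC25, read 759 in SFRP1, 479 in SFRP2, 365 in SFRP3, 358 in SFRP4 and 227 in SFRP5, against 704 in mock, with its lowest value in SFRP5. It passed the filter only through SFRP1 and mock, so the filter itself favours low values on the other arrays. RAD21, the cohesin subunit that separase cuts, read 67361 in SFRP1, 45690.2 in SFRP2, 35238 in SFRP3, 92218 in SFRP4 and 38727 in SFRP5, against 81421 in mock, with low values in SFRP3, SFRP5 and SFRP2. CDC26, a subunit of the anaphase-promoting complex, was lowest in SFRP4 (-1.81). It passed the filter only through SFRP2 and mock, which favours low values on the other arrays in the same way.

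The DNA replication list, which marks the preceding S phase, had a median of 0.17 in SFRP1, 0.06 in SFRP2, -0.25 in SFRP3, 0.13 in SFRP4 and -0.17 in SFRP5 over 36 genes. In SFRP5 GINS2, RRM2, TYMS and TK1 were at least 2-fold lower, against 6.53% of all genes, and CDC6 was higher, against 5.98%. SFRP3 had as many lower, MCM4, MCM5, MCM10 and CDC45, against 3.15% of all genes. SFRP1 had MCM2, ORC1 and POLE at least 2-fold higher, against 4.41%, and SFRP2 had POLE higher, against 2.8%. SFRP4 had GINS3 lower, against 7.51%. RRM2, a subunit of the enzyme that makes deoxynucleotides, read 24407 in SFRP1, 21777 in SFRP2, 16194 in SFRP3, 18339 in SFRP4 and 6067 in SFRP5, against 25426 in mock, and stood apart in SFRP5 with -2.07. POLE, a replicative polymerase, was above mock in all clones (1.04 ± 0.37, SD, n = 5 clones), as were 14.5% of all genes. GINS3 was lowest in SFRP4 (-2.58), and GINS4 was lower than mock in SFRP5 alone (-0.10).

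Of the factors that control transcription in the cell cycle, 21 of 22 passed the filter, with a median of -0.15 in SFRP5 and medians of 0.00 to 0.17 in the other clones, and none was 2-fold from mock in SFRP5. RBBP4, a subunit of MuvB and of other chromatin complexes, differed by 1.63 in SFRP1, 0.41 in SFRP2, -0.32 in SFRP3, 1.58 in SFRP4 and 0.73 in SFRP5. It was under the filter level in mock (534) and SFRP3 (428) and passed only through clones above mock, so the filter itself favours these higher values. E2F3 and TFDP1, an E2F and its dimer partner, differed by -0.59 and -0.92 in SFRP5, and E2F4, the E2F of the repressor complexes, by 0.68. Of the 8 CDK inhibitor genes on the array 6 passed the filter, with a median of -0.17 in SFRP5 and 3 genes below mock there. CDKN1B was at least 2-fold higher in SFRP5, against 5.98% of all genes. It read 7724 in SFRP1, 13512 in SFRP2, 13664 in SFRP3, 12321 in SFRP4 and 25331 in SFRP5, against 11971 in mock. It was highest in SFRP5 and lowest in SFRP1. CDKN1A, the inhibitor induced by p53, was above mock in all 5 clones, as were 14.5% of all genes. It read 13079 in SFRP1, 11426 in SFRP2, 8604 in SFRP3, 11208 in SFRP4 and 11744 in SFRP5, against 7593 in mock. CDKN3, a phosphatase of CDKs that is itself transcribed with the mitosis genes, was below mock in all 5 clones, as were 8.51% of all genes. Its difference was -1.13 in SFRP5, and CDKN1C was lowest in SFRP2 (-1.31). None of these genes passed limma in the set of clones.

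CHR-type letters were present in a window of 35 of the 38 mitosis genes that had both a window and a kept probe. The 35 had a median of -0.60 in SFRP5, and 8 of them were at least 2-fold lower. The 3 without any of the 3 spellings searched, AURKB, CCNA2 and NEK2, had a median of -0.82, and 1 of them, CCNA2, was 2-fold lower. Other spellings were not searched, so these 3 genes are not shown to lack a CHR element. The 6 genes with paired CCAAT boxes had a median of -0.49, and the other 32 of -0.61. CCNB1 and CDC20, whose promoters are printed above beside those of the lower genes, held the same kinds of letters and differed by -0.22 and 0.33 in SFRP5.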

How the data were processed

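RNA from 6 cultures was measured, 1 array each. Trizol was used for RNA, which was amplified and labelled with Cy5, per the labels' protocols. The deposited values are linear intensity values for 31741 probes, and how they were scanned, background-corrected and scaled, and on which slides and dates, is not given in the sources read. On the SFRP4 array 22 values were below 0. Values below 0 were set to 0 and log2(intensity + 1) was taken, with no further scaling. Gene symbols came from a platform annotation table, and the 24740 probes with 1 symbol were used. All 47 symbols are current in RefSeq. The brightest probe of each gene was kept where its highest array reached the median of all values (log2 of 9.33). Groups came from the sample titles. The clones as a set were tested against mock, and each array against the other 5, with limma (version 3.58.1, R version 4.3.3; linear fit and empirical Bayes, two-sided, Benjamini-Hochberg over all kept genes), and the fit was tested on simulated data with the same design. Single clones were compared with mock by counts at 2-fold and 1.5-fold, with no test. The members and lists were chosen with earlier results of these data known. The genes described with values are 10 well-known members, the member of each role with the largest mean difference, each member 2-fold from mock in a clone and the top 4 of each other list. Other members are given in counts or ranges, or were named after their values were seen. The comparisons with each array in turn, and SFRP5 against each other array, were added after the data were examined. Alternatives were quantile normalization, median centring, other filters, a floor at the 10th percentile, a pseudocount of 16, the mean over probes, a mean-variance trend and leaving out each clone.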

Additional observations from a re-analysis of the deposited data

Results flagged for a closer look

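CCNB2 in SFRP5 was the one value that stood apart from the other 4 clones. It differed from mock by -1.10, against -0.47 to -0.31 in the other clones, and the gap to the nearest of them was 0.793 of the whole range, where the critical value for 5 values is 0.71. The same was asked of 25 sets of 5 values, the 24 genes described by rule and the median of the 45 genes. The critical value is meant to flag about 1 in 20 sets of unselected values. Many of the genes, CCNB2 among them, were picked for a 2-fold difference in a clone or a large mean difference. That rate therefore does not hold here. The 5 values come from clones of different SFRP genes and not from replicates.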

How the results depend on the processing

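In SFRP5 the median of the mitosis genes lay between -0.81 and -0.56 under the alternative scalings, filters, floor, pseudocount and probe rule, the number of genes at least 2-fold from mock between 9 and 15, and the number with their lowest value in SFRP5 between 23 and 27. With another clone in the place of mock the SFRP5 median was -0.42 to -0.39, and all of these differences share the 1 SFRP5 array. No mitosis gene was called in the set of clones under any alternative. The count of genes below mock in all 5 clones was 11 under median centring and 5 to 13 without 1 clone, where fewer clones have to share the sign (13 without SFRP4, 8 without SFRP1, 7 without SFRP2), and the count above mock in all was 1 under quantile normalization and 0 to 2 without 1 clone. The median of the mean differences lay between -0.23 and -0.13 without 1 clone, and was -0.13 without SFRP5. Under quantile normalization 1 gene was lowest on SFRP2 and 1 on mock. Under median centring 3 genes were lowest on SFRP3. With no filter 1 gene, the near-floor KIF15, was 2-fold from mock in SFRP3, and with a filter on the mean level 2 were in SFRP4, because fewer genes pass it. Mean differences that turned sign were those of PLK1 (-0.016 under quantile normalization, -0.10 under median centring, -0.11 without SFRP1), BIRC5 (-0.015 under median centring), HMMR, PLK4 and MKI67, none of them called, and the cause was not tested. Without 1 clone the mean differences lay between -0.016 and 0.33 for BIRC5 (lowest without SFRP1), between -0.27 and 0.020 for PLK4 and between -0.46 and 0.033 for MKI67 (both highest without SFRP5), and HMMR was at 0.15 without SFRP1. No paired analysis was possible because each group has 1 array. The number of arrays, and for PTTG1 and KIF18A a signal near the filter level, limit these values.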
